A study of Mus musculus with 6 samples.

Results

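The genes described are 10 members of the integrated stress response: the transcription factor genes Atf4, Atf5 and Ddit3, and Asns, Trib3, Chac1, Fgf21, Sesn2, Psat1 and Phgdh, which are known as targets of ATF4 or of its partner CHOP, the product of Ddit3. They were taken by symbol from gene tables of 24411 symbols, and all 10 were found and passed the filter on low counts. The tables come from bulk RNA sequencing of mouse liver, with 3 libraries of the genotype labelled Control and 3 labelled Cyr61 KO. All 6 libraries are labelled male, 24 weeks old and of the strain Cyr61fl/fl, after 12 weeks on a diet that induces non-alcoholic steatohepatitis (NASH). The labels do not say what removed Cyr61 from the floxed alleles or in which cells, nor that each library came from its own mouse, so the tests measure library-to-library spread only.

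In the integrated stress response, kinases that sense amino acid shortage, unfolded protein in the endoplasmic reticulum (ER), double-stranded RNA or mitochondrial and heme stress phosphorylate the initiation factor eIF2alpha. General translation then slows, while Atf4 mRNA is translated more because of short open reading frames at its start. ATF4 protein pairs with C/EBP factors on C/EBP-ATF response elements and switches on genes of amino acid synthesis and uptake, of feedback and, through CHOP, of cell death. Since much of this control acts on translation, Atf4 mRNA is no measure of ATF4 protein. In liver the response is known for raising the secreted hormone FGF21.

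C/EBP-ATF response elements were looked for in the promoters by their letters. The letters TGATGNAA, searched on both strands from 250 bases before to 50 bases after each RefSeq start (GRCm38.p6), occurred in 3.97% of 32851 windows of all genes. Among the 10 members they occurred in 4, counted as genes with a match in any of their windows. Here and for the letters below, the share is per window and the member count per gene, so the measures are unlike. The 4 elements are printed here with 11 bases on either side, on the strand that carries the element, with the element in capitals.

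Asns: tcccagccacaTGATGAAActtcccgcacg
Fgf21: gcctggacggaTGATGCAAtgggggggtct
Chac1: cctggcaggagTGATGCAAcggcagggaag
Trib3: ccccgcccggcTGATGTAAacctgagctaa

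The Asns element begins 23 bases before the RefSeq start, on chromosome 6 from 7693225 to 7693232. Those of Fgf21 and Chac1 lie 139 and 193 bases before it, on chromosome 7 from 45615622 to 45615629 and on chromosome 2 from 119351049 to 119351056. The Trib3 match lies 15 bases after the RefSeq start, on chromosome 2 from 152344039 to 152344046. RefSeq starts are not always those of the GENCODE M21 annotation, from which the gene positions below are taken. By GENCODE the Asns element lies inside the gene, which runs to 7693254 on the minus strand. The Trib3 match lies before the GENCODE gene, which runs to 152344032 on the minus strand. The starts also differ for other members, Psat1 among them. A match of letters is a description and not a site shown to be bound.

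Of the 10 members, 4 fell in Cyr61 KO livers and 0 rose: Ddit3, Asns, Fgf21 and Phgdh (edgeR quasi-likelihood test, Benjamini-Hochberg adjusted p under 0.05 over 13563 genes). Among all tested genes 2.37% were called lower and 1.07% higher. At an unadjusted p under 0.05, 5 members were lower and 0 higher, against 16.1% of all tested genes lower and 11.3% higher. DESeq2 called 5 lower, with Trib3 added, and 0 higher, against 9.79% of the same genes lower and 6.16% higher. The groups did not overlap in 5 members, all lower in the knockouts, where 17.9% of all tested genes were apart in that direction and 17.3% in the other. The members' median log2 fold change, Cyr61 KO over Control, was -0.96, where that of all tested genes was -0.03. The fold was negative for 8 members and positive for Atf5 and Sesn2, where it was negative for 7002 of the 13563 tested genes. Without Control replicate 1 edgeR called 2 members lower, Ddit3 and Fgf21, and without Control replicate 2 or Cyr61 KO replicate 3 it called 3. It called 0 without Cyr61 KO replicate 1 or 2, or with scaling by library totals alone, although DESeq2 called 4 to 6 in these last 3 settings. Of all genes, edgeR called only 3 lower and 4 higher without Cyr61 KO replicate 1. With library totals it called 23 and 27 of all genes, where the main fit called 322 and 145. Since the members were chosen with earlier results of these libraries known, the count of members called describes these genes and is no independent test of the group.

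**Figure D1:**
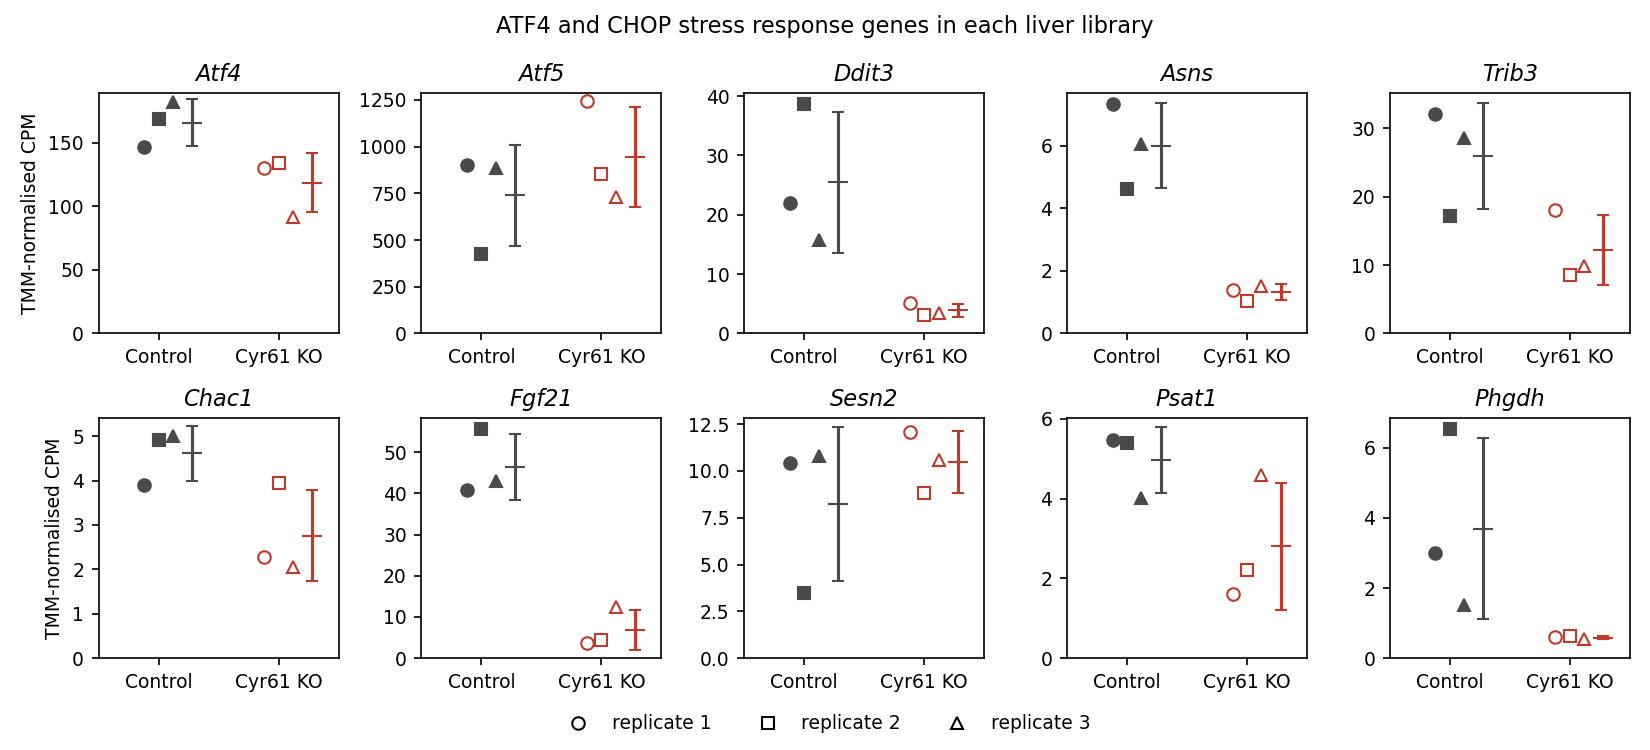
TMM-normalised CPM (read counts after putting all libraries on a single depth, linear axes from 0) of the 10 members in each library, with circle, square and triangle for replicates 1, 2 and 3 and the bar for mean ± SD (n = 3). Ddit3, Asns, Fgf21, Phgdh and Atf4 have every Cyr61 KO library below every Control library, while Atf5, Sesn2, Trib3, Chac1 and Psat1 have overlapping groups.

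The targeted gene was checked first. Cyr61 was at 15.6, 32.4 and 27.8 CPM in the controls, against 3.77, 2.66 and 3.14 CPM in the knockouts. The libraries held 21032878 to 40377742 gene counts. In Control replicate 2 only 50.9% of reads were counted in genes, against 82.8% to 87.6% elsewhere, and the albumin gene Alb was at 23799 CPM, against at least 66177 CPM elsewhere. In that library 19.4% of reads mapped to several places and 25.7% fell outside genes, against at most 5.73% and 7.14% elsewhere. Its TMM factor was 1.38, against 0.834 to 1.02. Malat1 was at 3738 CPM there, against 56.5 to 128 CPM elsewhere. The part of these differences in the results below was not tested. Of 9 hepatocyte markers 8 were abundant in every library, while Ass1 was at no more than 0.551 CPM in any. Their summed level was 39738 to 99176 CPM in the controls and 109126 to 130091 CPM in the knockouts. That of 11 monocyte-derived macrophage markers was 626 to 1107 CPM in the controls and 129 to 375 CPM in the knockouts, with 5 called lower and none of the 11 at 0 in every library. Among all tested genes 2.37% were called lower. The other macrophage markers were not called, at log2 fold changes from -3.24 for Ly6c2 to -0.52 for Adgre1. In bulk liver, fewer cells of a type and less RNA per cell cannot be told apart, and the part of these shifts in the results below was not tested.

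Among the transcription factor genes, Ddit3 fell to 15.2% of its control level while Atf4 and Atf5 did not pass the test. CHOP, the Ddit3 product, is a C/EBP family protein known to promote cell death when ER stress lasts. Ddit3 lies on chromosome 10 from 127290774 to 127296288 on the plus strand (positions here are of GRCm38, which is mm10, from GENCODE M21). Its values, for replicates 1, 2 and 3 in this order as for all genes, were 22.0, 38.7 and 15.7 CPM in the controls, against 5.08, 3.12 and 3.45 CPM in the knockouts. The groups were far apart, and the controls spread over a 2.46-fold range with replicate 2 highest. The means were 25.5 ± 11.9 and 3.88 ± 1.05 CPM (SD, n = 3). The log2 fold change was -2.71 ± 0.37 (SE, edgeR adjusted p = 0.0176). Without Control replicate 2 it was -2.25 (edgeR adjusted p = 0.0276). The call was lost without Cyr61 KO replicate 1 or 2 (edgeR adjusted p = 0.0615 and 0.0833), at log2 fold changes of -2.93 and -2.56.

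The bases upstream of Ddit3, the factor gene that fell, are printed from 250 to 21 bases before its RefSeq start (chr10:127290543-127290772, GRCm38.p6, plus strand). The capitals mark the AP-1 letters TGANTCA and the letters CCAAT, here on the opposite strand.

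Ddit3: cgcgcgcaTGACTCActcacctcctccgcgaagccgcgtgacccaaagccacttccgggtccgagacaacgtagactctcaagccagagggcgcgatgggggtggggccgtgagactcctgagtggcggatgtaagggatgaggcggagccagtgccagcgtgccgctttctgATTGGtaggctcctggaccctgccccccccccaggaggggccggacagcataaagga

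AP-1, a dimer of JUN, FOS and ATF proteins, binds letters of this kind. The AP-1 letters begin 242 bases before the start, and of the 10 members Ddit3 alone had them in its window, against 7.81% of all windows. CCAAT, the box bound by NF-Y, was in the windows of 7 members and in 37.4% of all windows. The letters of the cyclic AMP response element, TGACGTCA, were in 1.79% of all windows and in that of no member. They may still occur outside the windows searched.

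Reads on the other strand of Ddit3 were about as many in knockouts as in controls. The gene shares its last 68 bases, chromosome 10 from 127296221 to 127296288, with Mars, the methionyl-tRNA synthetase gene of the minus strand, and its first 15 bases with the non-coding Gm4189. On its own strand Ddit3 had 785, 1123 and 507 counts in the controls and 171, 88 and 123 in the knockouts. On the opposite strand it had 107, 181 and 118 counts in the controls and 159, 122 and 101 in the knockouts. The opposite strand thus made up 12.0% to 18.9% of the stranded reads in the controls and 45.1% to 58.1% in the knockouts. With counts that ignore strand the log2 fold change was -2.38 (edgeR adjusted p = 0.0212), smaller than on the Ddit3 strand. Those counts were 715, 998 and 453 in the controls and 187, 108 and 135 in the knockouts. They are not the sum of both strands, and in the controls they lay below the counts of the Ddit3 strand alone.

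**Figure D2:**
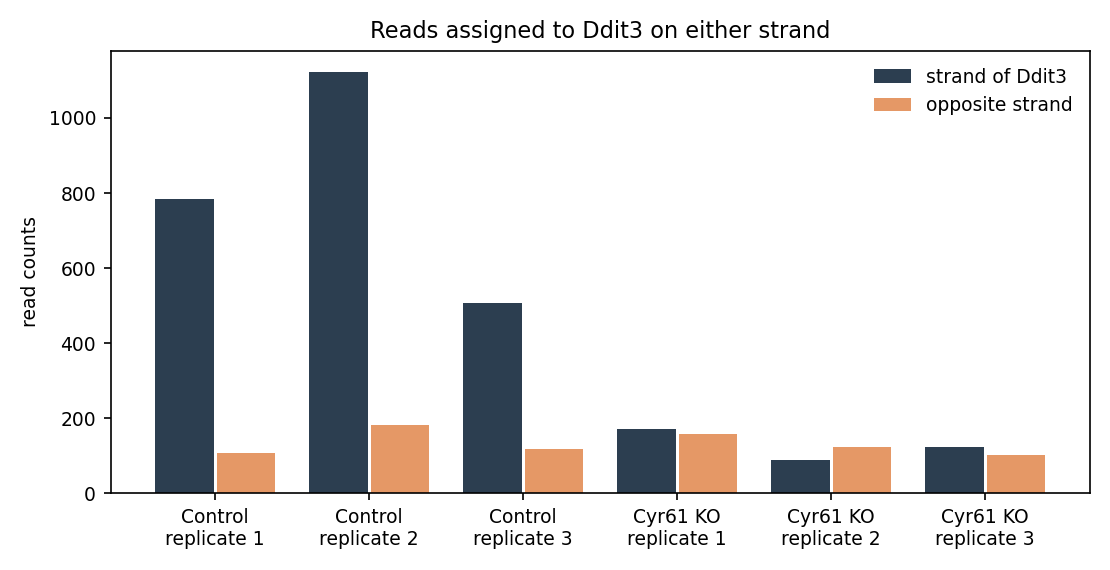
Read counts assigned to Ddit3 in each library on its own strand (dark bars) and on the opposite strand (light bars), on a linear axis from 0 and not scaled for depth. The dark bars run from 507 to 1123 in the controls and from 88 to 171 in the knockouts, and the light bars from 101 to 181 over all 6 libraries.

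Atf4, the central factor of the response, lies on chromosome 15 from 80255184 to 80257541. It was at 146, 169 and 182 CPM in the controls, against 130, 134 and 91.9 CPM in the knockouts. The groups did not overlap, as for 17.9% of all tested genes in the lower direction, but the gap between them was small. The log2 fold change of -0.48 ± 0.24 (SE) did not pass (edgeR adjusted p = 0.229). Atf5, a related factor that responds to mitochondrial protein stress and is abundant in liver, was at 904, 425 and 887 CPM in the controls, against 1243, 856 and 732 CPM in the knockouts. Its groups overlapped, with the lowest value in Control replicate 2, and the log2 fold change was 0.35 ± 0.38 (SE, edgeR adjusted p = 0.568). The start of Atf5 overlaps Nup62 and Il4i1 on the opposite strand, where 0.121% of its stranded reads fell.

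Fgf21, the stress- and fasting-induced hormone made by hepatocytes, fell to 14.7% of its control level, and its log2 fold change did not differ from those of Ddit3 and Phgdh beyond their SE. Its gene occupies bases 45613886 to 45615490 of chromosome 7, minus strand. The 250 bases before its start (chr7:45615491-45615740, GRCm38.p6, minus strand) follow, with the element shown above in capitals, here read on the strand of the gene.

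Fgf21: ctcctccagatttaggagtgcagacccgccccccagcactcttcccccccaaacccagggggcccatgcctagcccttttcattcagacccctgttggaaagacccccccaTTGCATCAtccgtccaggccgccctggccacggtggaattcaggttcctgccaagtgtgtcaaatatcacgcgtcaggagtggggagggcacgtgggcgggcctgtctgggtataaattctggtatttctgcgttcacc

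Fgf21 was measured at 40.8, 55.6 and 43.0 CPM in the controls, against 3.71, 4.43 and 12.3 CPM in the knockouts. The controls lay close together, and Cyr61 KO replicate 3 was the highest knockout by a wide margin yet below every control. The means were 46.5 ± 7.96 and 6.83 ± 4.78 CPM (SD, n = 3). The log2 fold change was -2.76 ± 0.44 (SE, edgeR adjusted p = 0.0237). Leaving out Cyr61 KO replicate 3 gave -3.50 (edgeR adjusted p = 0.00177), and leaving out Control replicate 2 gave -2.59 (0.0494). The call was lost without Cyr61 KO replicate 1 or 2 (edgeR adjusted p = 0.0812 and 0.105), at log2 fold changes of -2.45 and -2.52. The hepatocyte marker sum given above, most of it Alb, was higher in every knockout library than in every control. Of its 9 genes Cyp2e1 alone was called, higher, at a log2 fold change of 1.83. Alb, Apob, Ttr, Hnf4a and Cps1 were at 0.67, 1.03, 0.40, 0.83 and 0.73. Apoa1 was at 0.05 and Tat at -0.36. Ass1 was at -1.67, with at most 0.551 CPM in any library. The part of hepatocyte content in the Fgf21 values was not tested.

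PPARalpha, the fatty acid sensor of the fasted liver, is the other well known activator of Fgf21, so its targets were set beside it. Of 11 genes, Ppara and 10 targets, 2 were called higher and 0 lower, where 1.07% of all tested genes were called higher. All 11 had a positive log2 fold change, with a median of 1.19, where 6561 of the 13563 tested genes had a positive one. DESeq2 called 7 higher, against 6.16% of all tested genes. The part of hepatocyte content in the values of this list was not tested. Cyp4a14, a fatty acid omega-hydroxylase, was at 55.2, 65.7 and 48.0 CPM in the controls and at 631, 739 and 1555 CPM in the knockouts (log2 fold change 4.11, edgeR adjusted p = 0.0103). Acot1, a cytosolic acyl-CoA thioesterase with close family copies, was at 30.7, 25.3 and 16.8 CPM in the controls and at 67.0, 53.1 and 108 CPM in the knockouts (log2 fold change 1.65, edgeR adjusted p = 0.0381). Acot1 did not pass without Control replicate 1 or 2 or Cyr61 KO replicate 1 or 2 (edgeR adjusted p = 0.0528, 0.0727, 0.0913 and 0.0981), nor with library totals (0.108), whereas Cyp4a14 passed in all of these settings.

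Of 5 genes of the FGF21 receptor complex 1 was called lower and 0 higher, against 2.37% and 1.07% of all tested genes. Fgfr1, a receptor that FGF21 uses with its co-receptor, was at 17.9, 19.2 and 25.1 CPM in the controls and at 7.78, 5.64 and 7.96 CPM in the knockouts, and fell, with log2 fold change -1.54 and edgeR adjusted p = 0.0237. Fgfr2, Fgfr3 and Fgfr4 were at log2 fold changes of 0.22, -0.17 and 0.14 and were not called. Klb, the beta-klotho co-receptor, was at 11.5, 3.27 and 12.0 CPM in the controls, against 26.9, 43.0 and 22.7 CPM in the knockouts. Its groups did not overlap, but its log2 fold change of 1.79 did not pass (edgeR adjusted p = 0.0669), while DESeq2 called it higher (adjusted p = 0.00195). The Fgfr1 call was lost without Cyr61 KO replicate 1 or 2 (edgeR adjusted p = 0.0771 and 0.113), and with library totals (0.0511). Klb, and Ppara in the plot, were chosen after their values were seen.

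**Figure D3:**
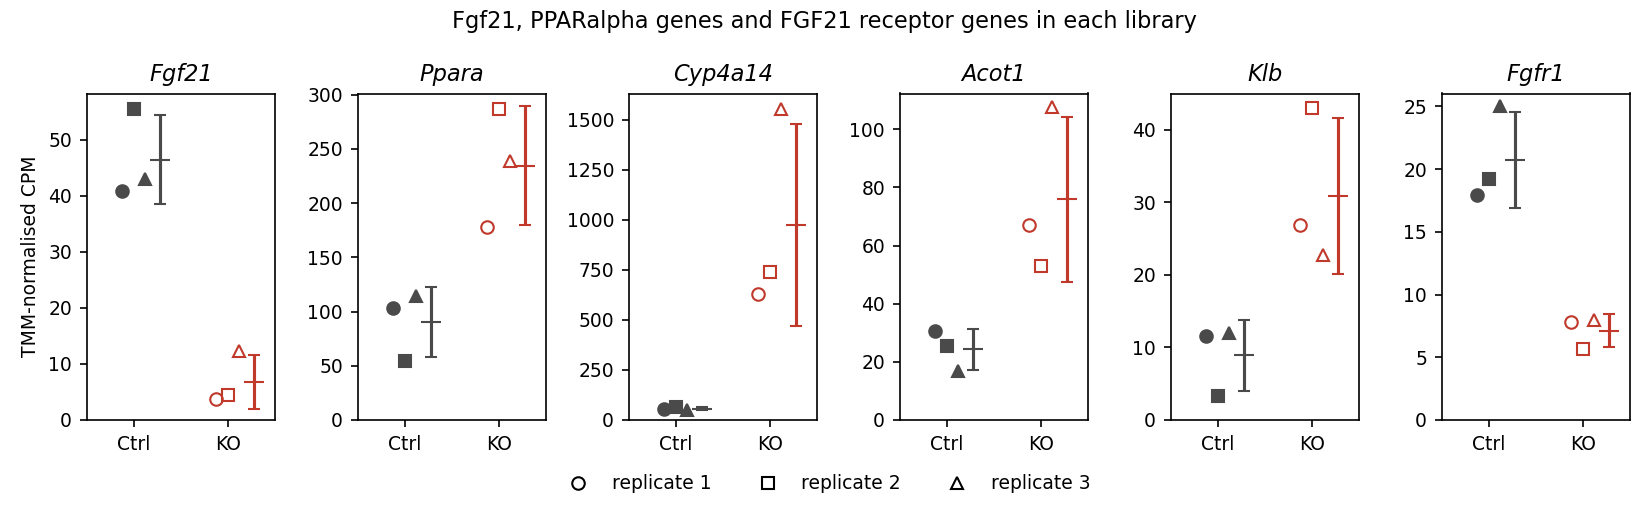
TMM-normalised CPM (linear axes from 0) of Fgf21, Ppara, Cyp4a14, Acot1, Klb and Fgfr1 in each library, Control (Ctrl) in grey and Cyr61 KO (KO) in red, with mean ± SD (n = 3) and marker shapes for replicates. Fgf21 and Fgfr1 are lower in every knockout, and Cyp4a14 and Acot1 are higher in every knockout.

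Of the 3 amino acid synthesis enzymes of the group, Asns and Phgdh fell and Psat1 did not pass the test. Asns makes asparagine from aspartate and glutamine and is a standard readout of ATF4. It lies on chromosome 6 from 7675169 to 7693254. It was at 7.33, 4.61 and 6.06 CPM in the controls, against 1.40, 1.03 and 1.51 CPM in the knockouts. Both groups were tight and well separated, with control replicate 2 the lowest control, unlike Ddit3 and Fgf21, which were highest there. The knockout mean, 1.31 ± 0.253 CPM (SD, n = 3), was 21.9% of the control mean, and the log2 fold change was -2.19 ± 0.35 (SE, edgeR adjusted p = 0.0237). Without Control replicate 2 it was -2.32 (edgeR adjusted p = 0.0276). The call was lost without Control replicate 1 or Cyr61 KO replicate 1 or 2 (edgeR adjusted p = 0.0624, 0.0820 and 0.119).

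Phgdh, the first enzyme of serine synthesis, lies on chromosome 3 from 98313170 to 98339990. It was at 3.01, 6.54 and 1.52 CPM in the controls, against 0.594, 0.639 and 0.533 CPM in the knockouts. The knockouts rested on 18 to 20 counts per library, and the controls spread over a 4.31-fold range with replicate 2 highest. The log2 fold change was -2.64 ± 0.58 (SE, edgeR adjusted p = 0.0458). This was the least secure of the 4 calls: it passed only without Control replicate 3 (edgeR adjusted p = 0.0197) when 1 library was left out in turn, and without Control replicate 2 the log2 fold change was -1.92 (0.0709). Summed markers of several other cell types were also highest in Control replicate 2. The 7 cholangiocyte markers summed to 1397 CPM there, 278 and 240.0 CPM in the other controls and 81.4 to 160 CPM in the knockouts. Most of that sum was Spp1 in every library. Spp1 was at 1113 CPM in Control replicate 2 and at 221 and 193 CPM in the other controls. The other cholangiocyte markers were also highest in Control replicate 2. The 5 T and NK cell markers summed to 61.1 CPM there, 8.54 and 4.80 CPM in the other controls and 1.99 to 2.86 CPM in the knockouts. The 5 markers of dividing cells summed to 76.8 CPM there, 37.4 and 23.3 CPM in the other controls and 4.97 to 35.3 CPM in the knockouts. The sums for monocyte-derived macrophages, stellate cells, B and plasma cells and neutrophils were highest in that library too, and the part of any of these in the Phgdh values was not tested.

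Psat1, which carries out the second step of serine synthesis, lies on chromosome 19 from 15904678 to 15947337. It was at 5.48, 5.40 and 4.02 CPM in the controls and at 1.60, 2.20 and 4.60 CPM in the knockouts. Cyr61 KO replicate 3 lay within the controls, and the log2 fold change of -0.82 ± 0.43 (SE) did not pass (edgeR adjusted p = 0.244).

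Trib3, a pseudokinase induced by ATF4 and CHOP that restrains them in turn, was at 32.1, 17.2 and 28.6 CPM in the controls and at 18.1, 8.55 and 9.90 CPM in the knockouts. Cyr61 KO replicate 1 lay just above Control replicate 2. The log2 fold change of -1.09 ± 0.34 (SE) did not pass by edgeR (adjusted p = 0.0938) and passed by DESeq2 (adjusted p = 0.0434). Chac1, an enzyme that breaks down glutathione and is induced late in the response, was at 3.90, 4.92 and 5.01 CPM in the controls and at 2.29, 3.94 and 2.05 CPM in the knockouts. Only Cyr61 KO replicate 2 and Control replicate 1 overlapped, by a small margin, and the log2 fold change was -0.74 ± 0.36 (SE, edgeR adjusted p = 0.215). Sesn2, a leucine-binding inhibitor of the growth kinase mTORC1, was at 10.4, 3.48 and 10.8 CPM in the controls and at 12.1, 8.80 and 10.6 CPM in the knockouts. Control replicate 2 lay apart below the other 5 libraries, which were close together (log2 fold change 0.35 ± 0.40 SE, edgeR adjusted p = 0.592). Sesn2 contains Gm12981 on its own strand, so reads in any shared exon could have been left uncounted as ambiguous.

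**Figure D4:**
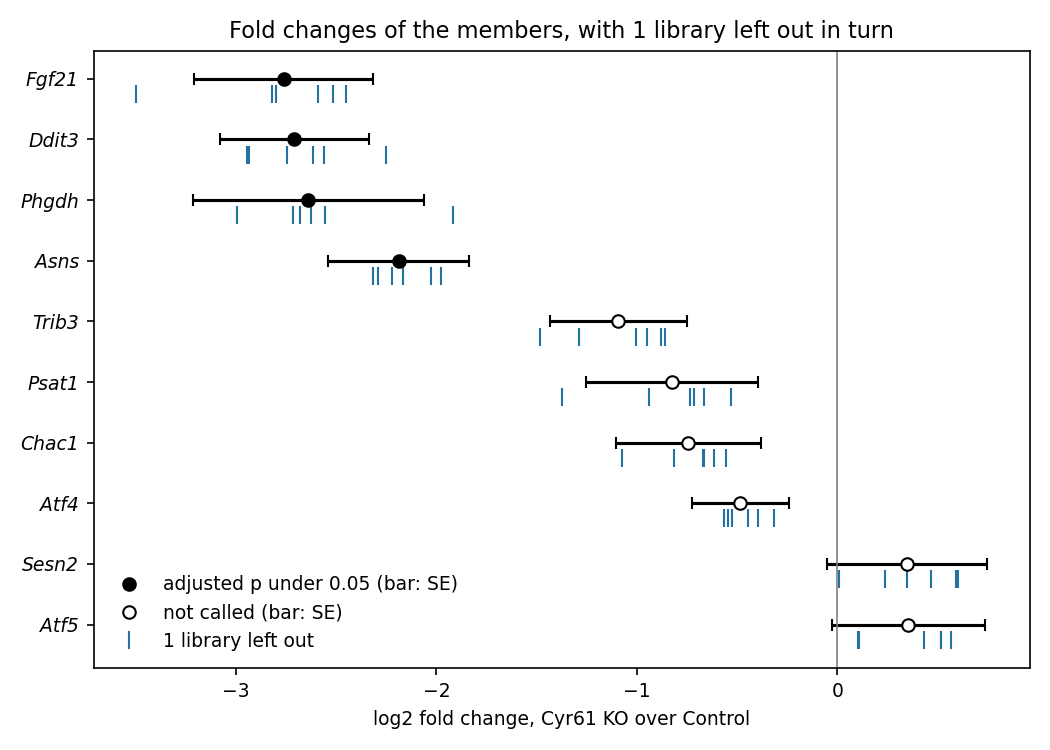
Log2 fold change of each member, Cyr61 KO over Control, with its SE (filled where the edgeR adjusted p was under 0.05), and as blue ticks the value with each of the 6 libraries left out in turn. Every tick lies on the same side of 0 as its gene's full value, and the Phgdh tick at -1.92 is the one without Control replicate 2.

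Levels can be compared between genes only per length. Per kilobase of annotated exon, Atf5 was the highest member in controls at 371 ± 136 CPM per kilobase (SD, n = 3), followed by Atf4 at 70.4 ± 7.72 and Fgf21 at 48.9 ± 8.37. Ddit3 at 14.9 ± 6.92 and Trib3 at 12.2 ± 3.67 did not differ beyond their spread. Chac1, Sesn2, Asns, Phgdh and Psat1 ran from 2.82 ± 0.376 down to 1.17 ± 0.193 CPM per kilobase. In the knockouts Atf5, Atf4 and Fgf21 were again the first 3 by mean, at 474 ± 134, 50.3 ± 9.86 and 7.18 ± 5.03 CPM per kilobase, while Ddit3, at 2.27 ± 0.612, was sixth, below Trib3 and Sesn2. The exon lengths are those of GENCODE M21, since the annotation the authors counted with is not given in the sources used here.

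Other genes of the pathway were called about as often as all tested genes. Of 66 tested genes in 6 further lists (kinases, partner factors, enzymes, transporters, tRNA synthetases and effectors), 2 were called lower and 0 higher by edgeR, against 2.37% and 1.07% of all tested genes, with a median log2 fold change of -0.03, that of all tested genes. At an unadjusted p under 0.05, 11 were lower and 12 higher, against 16.1% and 11.3% of all tested genes. DESeq2 called 7 lower and 6 higher, against 9.79% and 6.16%, and these shares are the background for each list that follows. Both calls were partner factors of the 10 tested. Atf3, a stress-induced repressor that is itself a target of ATF4, was at 35.0, 33.0 and 20.0 CPM in the controls and at 2.35, 1.81 and 4.68 CPM in the knockouts (log2 fold change -3.31, edgeR adjusted p = 0.0107). Nupr1, a small chromatin protein induced by stress, was at 6.57, 17.6 and 4.83 CPM in the controls and at 1.01, 1.31 and 2.24 CPM in the knockouts (log2 fold change -2.66, edgeR adjusted p = 0.0427). Nupr1 was highest in Control replicate 2, and without it the value was -1.88 (0.0608). Atf3 did not pass without Cyr61 KO replicate 1 (edgeR adjusted p = 0.0625), nor Nupr1 without Control replicate 1 or Cyr61 KO replicate 1 or 2 (0.0528, 0.109 and 0.170) or with library totals (0.0848).

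Upstream of ATF4, 0 of 9 genes of the eIF2alpha kinases, phosphatases and their helpers were called by edgeR. Of these 4 were higher and 0 lower at an unadjusted p under 0.05 (11.3% of all tested genes higher), DESeq2 called 2 higher (6.16%), and the median log2 fold change was 0.41. Dnajc3, the ER-resident inhibitor of eIF2alpha kinases, was at 227, 115 and 175 CPM in the controls and at 315, 338 and 321 CPM in the knockouts. Ppp1r15b, which guides the constitutive phosphatase to eIF2alpha, was at 85.2, 58.9 and 82.4 CPM in the controls and at 116, 167 and 123 CPM in the knockouts. Neither passed by edgeR (adjusted p = 0.100 and 0.0875). For both, every knockout library lay above every control, and Control replicate 2 was the lowest library. The rest of the list was named after its values were seen. Eif2ak1, a kinase gene, and Gcn1l1 were the others of the 4, at log2 fold changes of 0.70 and 0.55. The kinase genes Eif2ak2, Eif2ak3 and Eif2ak4 were at 0.13, -0.27 and 0.41. Ppp1r15a was at -0.12 and Eif2s1 at -0.30.

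The other target lists held 0 calls by edgeR. Of 12 serine, one-carbon and proline enzymes 2 were lower and 2 higher at an unadjusted p under 0.05, and DESeq2 called 1 in each direction, counts near the shares of all tested genes (16.1% lower and 11.3% higher, and 9.79% and 6.16% by DESeq2). Cbs and Gpt2, the highest of them in CPM, were at log2 fold changes of 0.30 and 0.02. Mthfd2, the mitochondrial folate enzyme, had the smallest p of this list and was chosen after its value was seen. It was at 8.12, 10.3 and 6.13 CPM in the controls and 2.32, 1.49 and 4.07 CPM in the knockouts. Its log2 fold change of -1.63 did not pass by edgeR (adjusted p = 0.0636), while DESeq2 called it lower (adjusted p = 0.00266). Of 9 amino acid transporters 4 were lower and 1 higher at that unadjusted p, with 2 and 1 called by DESeq2 and a median of -0.50. Slc38a2 and Slc3a2, the highest in CPM, were at -0.03 and -0.50.

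Aminoacyl-tRNA synthetases charge tRNAs with amino acids, and ATF4 is known to raise many of their genes. Of 13 genes of that list, the tRNA exporter gene Xpot included, 0 were lower and 4 higher at an unadjusted p under 0.05 (11.3% of all tested genes higher), and DESeq2 called 2 higher (6.16%), at a median of 0.10. Tars was at 154, 90.1 and 170 CPM in the controls and at 292, 239 and 233 CPM in the knockouts, and Aars had a positive log2 fold change, 0.76, but neither passed (edgeR adjusted p = 0.107 and 0.178). Of 13 stress effectors and CHOP targets 3 were lower and 0 higher at an unadjusted p under 0.05 (16.1% of all tested genes lower), and DESeq2 called 2 lower (9.79%). Sqstm1 and Herpud1, the highest in CPM, were at log2 fold changes of -0.28 and -0.32. Gdf15, a secreted stress cytokine with the smallest p of this list, was chosen after its value was seen. It was at 28.9, 23.5 and 28.5 CPM in the controls and at 9.21, 2.94 and 10.9 CPM in the knockouts. Its log2 fold change of -1.81 narrowly missed the threshold by edgeR (adjusted p = 0.0520), while DESeq2 called it lower (adjusted p = 0.000877).

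**Figure D5:**
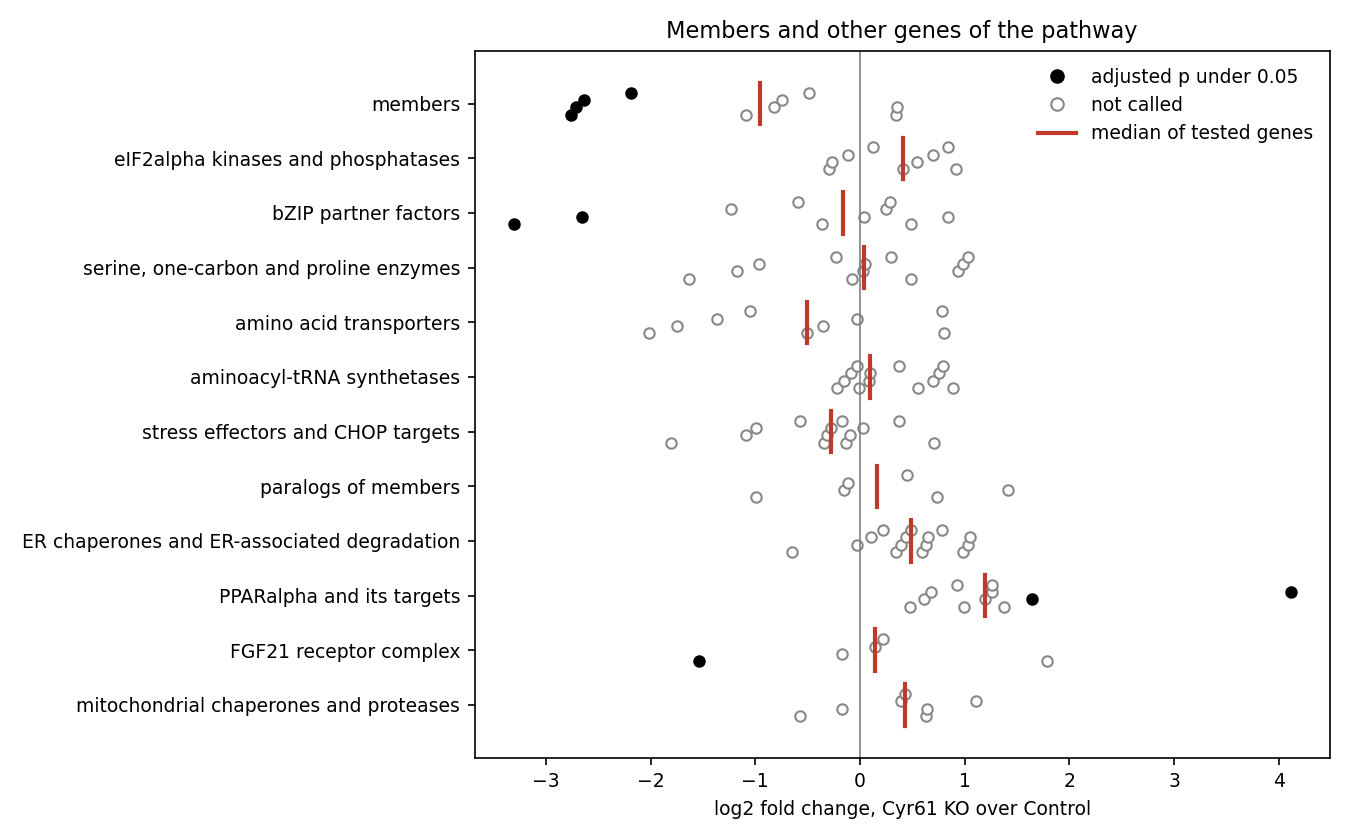
Log2 fold change, Cyr61 KO over Control, of each tested member and of each tested gene of 11 further lists, with called genes (edgeR adjusted p under 0.05) in black and the red line at the list median. The median is -0.96 for the members and 0.48 for the ER chaperone list, and the called genes outside the members are Atf3, Nupr1, Cyp4a14, Acot1 and Fgfr1.

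Genes of the other arms of the ER and mitochondrial stress responses gave 0 calls by edgeR. The 15 ER chaperone and ER-associated degradation genes had 5 higher and 0 lower at an unadjusted p under 0.05 (11.3% of all tested genes higher), with 3 called higher by DESeq2 (6.16%) and a median log2 fold change of 0.48. Hsp90b1 and Calr, the highest of them in mean CPM over the 6 libraries, were at 0.44 and 0.39. Hspa5, the main ER chaperone, named after its value was seen, was at 0.11. The 7 mitochondrial chaperone and protease genes had 1 higher and 0 lower at that unadjusted p, near the share of all tested genes, with 1 called higher by DESeq2 and a median of 0.43. Hspa9 and Hspd1 were at 0.64 and 0.39. Of 6 paralogs of members 0 were called by edgeR, with 1 lower and 1 higher at the unadjusted p and 1 higher by DESeq2. Trib1 and Fgf1, the paralogs highest in CPM, were at 0.45 and 1.41.

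The members also differed in shape across the 6 libraries. By Euclidean distance of log2 CPM centred on each gene's mean over the 6 libraries, Ddit3 lay nearest to Phgdh among the members (0.88), and Atf4 nearest to Chac1 (0.63), as Atf5 did to Sesn2 (0.63). Over all tested genes with a plain symbol, those nearest to Ddit3 were Meox1, Cpxm2, Grrp1, S100g and Arhgap15, at distances from 0.55 to 0.65. Those nearest to Asns were Evc2, Hist1h4h, Evc, Slc41a3 and Haus8, at 0.58 to 0.69. Ddit3, Phgdh and all the genes named as nearest to Ddit3 were highest in Control replicate 2. Ddit3 lay further from Fgf21 (1.79), although their log2 fold changes did not differ beyond their SE. A distance over 6 libraries of 2 groups thus reflects both the group difference and single libraries, and is given as a description.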

How the data were processed

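For each of 6 liver libraries the authors deposited a table of read counts per gene. The submitters' processing notes list Trimmomatic 0.38, STAR 2.6.1a and the builds mm10 and hg38; annotation and mapping settings were not given in the sources used. Counts on the strand that fits the directional kit (per the labels' protocols) were used, without the rows that name no gene. Tests used edgeR 4.0.16 (R 4.3.3): filterByExpr at a count of 10 and a total of 15, TMM, a group term and the two-sided quasi-likelihood F test, over 13563 of 24411 genes. CPM are TMM-normalised, and each SE is the size of the log2 fold change divided by the square root of its F statistic. DESeq2 1.42.0 and the other alternatives are in the closing section. No 2 libraries agreed within sampling noise. Members and lists were chosen with earlier results of these data known. Named genes are the members, from each list the called genes (at most 4) or, with none, the 2 highest in mean CPM over the 6 libraries, and the genes nearest to Ddit3 and Asns. Of the marker lists fixed, the summed CPM in controls and knockouts were 380 to 521 and 180 to 523 for Kupffer cells, 240.0 to 1397 and 81.4 to 160 for cholangiocytes, 419 to 756 and 167 to 266 for stellate cells and 89.5 to 139 and 139 to 186 for endothelium. They were 4.80 to 61.1 and 1.99 to 2.86 for T and NK cells, 10.2 to 48.0 and 3.09 to 3.94 for B and plasma cells, 15.4 to 66.0 and 2.41 to 6.73 for neutrophils, and 1.43 to 3.72 and 0.851 to 1.82 for pancreas and gut. In the controls most of the stellate cell sum was Col1a1 and Col3a1. Both were called lower (log2 fold change -2.27 and -1.78), as was Des (-1.38). The stellate markers Lrat, Reln and Pdgfrb were not called, at 0.09, 0.05 and -0.84.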

Additional observations from a re-analysis of the deposited data

How the results depend on the processing

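The directions of all 10 members held in each alternative run. The counts of members called lower by edgeR were 0 without Cyr61 KO replicate 1 and 0 without Cyr61 KO replicate 2, 2 without Control replicate 1 and 4 without Control replicate 3. In the 2 settings with 0, 5 and 6 members were lower at an unadjusted p under 0.05, and DESeq2, added after seeing the data, called 5 and 4. Scaled by library totals alone, edgeR called 0 members (7 lower at an unadjusted p under 0.05), with adjusted p of 0.0541 to 0.0848 for the 4, at folds larger than with TMM; DESeq2 with library totals, also added, called 6. That scaling moved the median of all genes from -0.03 to -0.30 and called 27 genes higher and 23 lower, against 145 and 322, and 1 other pathway gene lower. DESeq2 called 837 genes higher and 1413 lower, and 6 and 7 of the other pathway genes. With no low-count filter 278 were higher and 666 lower, with 4 other pathway genes lower. Leaving out 1 library gave 3 to 720 genes lower and 4 to 169 higher, and 0 to 6 other pathway genes lower. With the replicate block 5 members were called, with Trib3 at -1.12 (edgeR adjusted p = 0.0431), and 162 genes were higher and 471 lower. Same-numbered libraries did not deviate together (correlations -0.06, -0.24 and -0.45), so the numbers were not taken as pairs. The knockout counts of Phgdh and Asns, 18 to 54 per library, limit their precision.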
